A study of Mus musculus with 8 samples.

Results

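The 40 DNA replication genes described here were taken as a named list from the 32499 genes of the deposited count table. They are the genes for 4 origin loading factors, 12 subunits and cofactors of the replicative helicase, 9 subunits of primase and the replicative polymerases, 6 of the sliding clamp and its loader, 3 of the single-strand binding protein RPA, 2 that join Okazaki fragments and 4 that supply deoxynucleotides. All 40 were in the table and all 40 passed the filter on low counts, with at least 43 counts in every library. RNA came from pre-B cells derived from the bone marrow of C57BL/6 mice that lacked Arf, a tumour suppressor product of Cdkn2a, so that every group was Arf-/-. The cells carried a lentivirus for TCF3-ZNF384, for TAF15-ZNF384 or for full-length ZNF384 (wild type), each with an HA tag, or the empty vector (EV), and were sorted as GFP+. Each group had 2 libraries, which the series calls biological replicates. The p-values rest on the spread between libraries of a group, estimated together over all 4 groups. The age of the mice, the promoter of the vector and whether a line came from a single clone are not given in the sources used here.

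Before a cell copies its DNA, the origin recognition complex, with Cdc6 and Cdt1, loads rings of Mcm2 to Mcm7 onto chromatin. When S phase starts, Cdc45 and the GINS complex join each ring and turn it into the working helicase, and Mcm10 helps that step. Polymerase alpha with primase lays down primers, polymerases delta and epsilon extend them on the clamp Pcna, and Fen1 and Lig1 seal the lagging strand. Most of these genes are transcribed as cells enter S phase, and many are known targets of E2F transcription factors. ZNF384 encodes a C2H2 zinc finger protein that regulates transcription, and fusions of it with TCF3, TAF15 and other partners occur in B cell precursor and mixed phenotype leukaemias.

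The promoters of the genes were read from RefSeq (GRCm38.p6), as windows of 250 bases before to 50 after each annotated start, and 33 of the 40 genes matched an entry, with 38 windows. Both strands were searched for 4 E2F-type words of 8 bases (TTTCCCGC, TTTGGCGC, TTTCGCGC and TTTGCCGC), which can overlap each other. At least 1 of them was in 14 of the 38 windows (36.8%) and in 744 of all 32851 RefSeq promoter windows (2.26%). The shorter word CCAAT, known from NF-Y sites, was in 22 of 38 (57.9%) and in 37.4% of all windows. These matches are descriptions of letters, not of binding. Below stand the 170 bases before the start for the 5 genes whose E2F-type word lay wholly before the start and whose counts fell with TCF3-ZNF384, and for Tk1, the gene that rose. Capitals mark the E2F-type words.
Orc1 (chr4:108579284-108579453, plus strand): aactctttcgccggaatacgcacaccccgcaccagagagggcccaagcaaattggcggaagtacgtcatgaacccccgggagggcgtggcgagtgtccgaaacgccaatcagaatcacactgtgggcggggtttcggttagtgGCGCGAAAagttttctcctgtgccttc
Cdc6 (chr11:98907981-98908150, plus strand): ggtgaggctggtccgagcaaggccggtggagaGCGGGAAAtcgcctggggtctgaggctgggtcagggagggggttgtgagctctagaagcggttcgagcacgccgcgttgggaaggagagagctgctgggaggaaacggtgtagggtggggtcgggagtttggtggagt
Mcm5 (chr8:75109339-75109508, plus strand): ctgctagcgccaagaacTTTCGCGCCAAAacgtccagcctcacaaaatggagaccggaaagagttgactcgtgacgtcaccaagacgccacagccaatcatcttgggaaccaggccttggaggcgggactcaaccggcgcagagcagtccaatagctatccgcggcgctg
Mcm7 (chr5:138171884-138172053, minus strand): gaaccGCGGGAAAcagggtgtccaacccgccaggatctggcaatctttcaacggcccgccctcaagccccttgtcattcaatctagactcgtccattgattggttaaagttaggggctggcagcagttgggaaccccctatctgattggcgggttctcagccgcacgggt
Pola1 (chrX:93632156-93632325, minus strand): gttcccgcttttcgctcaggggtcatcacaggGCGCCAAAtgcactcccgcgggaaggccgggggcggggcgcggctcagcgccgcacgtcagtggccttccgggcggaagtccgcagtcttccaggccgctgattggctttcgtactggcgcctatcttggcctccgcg
Tk1 (chr11:117826015-117826184, minus strand): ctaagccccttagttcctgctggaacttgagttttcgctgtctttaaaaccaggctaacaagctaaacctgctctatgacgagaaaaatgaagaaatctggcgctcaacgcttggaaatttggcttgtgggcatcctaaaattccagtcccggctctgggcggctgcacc

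The word began 27 bases before the start of Orc1, 138 before Cdc6, 165 before Mcm7 and 138 before Pola1. Mcm5 had 2 overlapping words on opposite strands, and the Tk1 window had none of these 4 words. Among the genes with a window, 8 of 15 that fell with TCF3-ZNF384 against EV held such a word, as did 6 of 17 that did not pass the test.

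Total counts ran from 9381954 to 41483660 per library, and 12970 genes passed the filter on low counts. Values are CPM (read counts relative to library size), with library sizes scaled by the trimmed mean of M values (TMM). A gene is said to have risen or fallen where edgeR's quasi-likelihood test gave an adjusted p under 0.05 over all tested genes, and log2 fold changes are given ± SE. Reads of Zfp384, the mouse counterpart of ZNF384, stood at 511 and 450.2 CPM with TCF3-ZNF384, 185 and 162 with TAF15-ZNF384, 51.1 and 90.2 with ZNF384, and 23.97 and 21.6 with EV, but whether the constructs carry human or mouse sequence is not given in the sources used here. A set of 5 non-coding genes took 18.5 and 24.5% of the counts with TCF3-ZNF384, 28.1 and 29.6% with TAF15-ZNF384, 10.9 and 12.5% with ZNF384 and 27.2 and 33.2% with EV. Outside that set, the 40 genes held 0.618 and 0.601% of the counts with TCF3-ZNF384, 0.765 and 0.750% with TAF15-ZNF384, 0.792 and 0.662% with ZNF384 and 0.709 and 0.700% with EV. The column names of the EV libraries lack a suffix that the other 6 carry, and any separate handling of them cannot be told apart from the group.

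With TCF3-ZNF384, lower levels ran through the helicase, the polymerases and the origin loading factors when set against EV. Of the 40 genes, 20 fell and 1 rose, where 17% of all tested genes fell and 16.2% rose. Their median log2 fold change was −0.30, beside 0.01 over all tested genes, and 36 of 40 lay below 0. Both TCF3-ZNF384 libraries were below both EV libraries for 33 of the 40, where that held for 35.2% of tested genes. The fitted changes were moderate, from −0.85 for Mcm10 to 0.40 for Tk1. In bulk RNA, fewer cells in S phase and less of each transcript per cell cannot be told apart.

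Of the 21 calls against EV, 8 held in every alternative (other tests, scalings and filters) and with each library left out in turn: Mcm10, Mcm3, Mcm4, Mcm5, Pola1, Pold1, Pold2 and Prim2. The count of calls was 13 without TCF3-ZNF384 replicate 1, 11 without TCF3-ZNF384 replicate 2, 14 without EV replicate 1 and 10 without EV replicate 2, while the median stayed between −0.36 and −0.29. Scaling by total counts outside the 5 non-coding genes moved the median of all tested genes to 0.15 and that of the 40 genes to −0.16, with 13 lower and 2 higher calls. A fit of TCF3-ZNF384 and EV alone, which takes no spread from the other groups, gave 28 lower and 1 higher (median −0.30). All 21 calls were kept there, and the added ones were genes that missed the threshold in the shared fit.

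**Figure D1:**
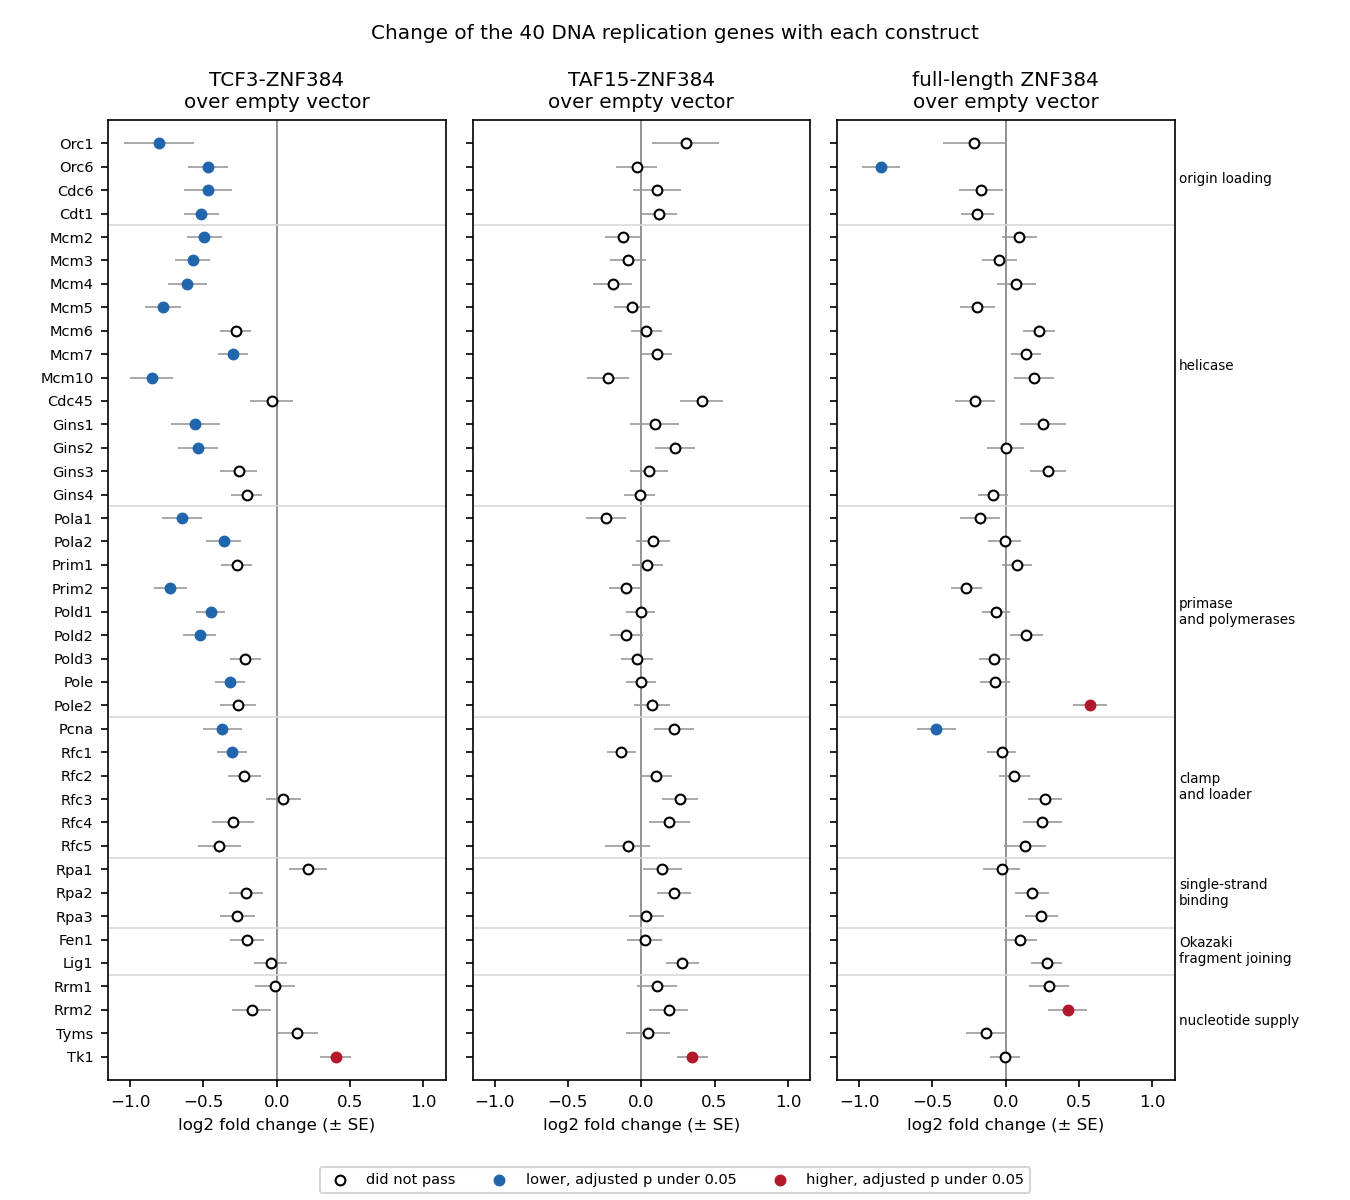
Log2 fold change ± SE (x axis) of each of the 40 genes (y axis, grouped by role) over EV with TCF3-ZNF384, TAF15-ZNF384 and full-length ZNF384, each from 2 libraries a group. Filled points passed an adjusted p of 0.05. In the TCF3-ZNF384 panel 20 genes lie filled to the left of 0 and Tk1 to the right, while 1 gene is filled with TAF15-ZNF384 and 4 are filled with ZNF384.

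All 4 origin loading genes fell with TCF3-ZNF384 against EV, with a median log2 fold change of −0.49. Cdt1, which brings the Mcm ring to the origin (mm9 chromosome 8, 125091915 to 125097028, plus strand), had 15.9 and 16.5 CPM with TCF3-ZNF384, 25.4 and 25.2 with TAF15-ZNF384, 21.4 and 19.1 with ZNF384, and 21.9 and 24.6 with EV. Both TCF3-ZNF384 libraries were below the other 6, and the log2 fold change over EV was −0.51 ± 0.12 (adjusted p = 0.00465). Orc6, the smallest subunit of the origin recognition complex (mm9 chromosome 8, 87823531 to 87832177, plus strand), had 12.4 and 13.2 CPM with TCF3-ZNF384, 15.8 and 19.1 with TAF15-ZNF384, 10.3 and 9.48 with ZNF384, and 16.9 and 18.9 with EV. The ZNF384 libraries were lowest for this gene, the TCF3-ZNF384 libraries came next, and those of TAF15-ZNF384 and EV overlapped. Orc6 changed by −0.47 ± 0.14 (adjusted p = 0.0164) with TCF3-ZNF384 over EV. Orc1, the subunit whose level is known to cycle with cell division, had the lowest level per length of the 40 and ran from 3.96 to 10.2 CPM over all libraries and fell by 0.80 on the log2 scale. Cdc6, the ATPase that helps load the ring, fell by 0.47. The call was lost for Orc1 without TCF3-ZNF384 replicate 1 or EV replicate 2 and with limma-voom (−0.77 to −0.58) and for Orc6 without either TCF3-ZNF384 library or EV replicate 2 and with total-count scaling (−0.53 to −0.33). It was also lost for Cdc6 without either TCF3-ZNF384 library or EV replicate 2 and with DESeq2's Wald test, limma-voom, total-count scaling or libraries thinned to equal depth (−0.58 to −0.28) and for Cdt1 without EV replicate 2 (−0.43).

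In the helicase, 8 of 12 genes fell with TCF3-ZNF384 against EV and none rose, with a median of −0.51. Mcm10, which helps switch the loaded ring on (mm9 chromosome 2, 4910760 to 4933837, minus strand), had 21.4 and 20.7 CPM with TCF3-ZNF384, 30.01 and 34.9 with TAF15-ZNF384, 50.1 and 36.2 with ZNF384, and 39.0 and 36.9 with EV. Its TCF3-ZNF384 libraries were the lowest of the 8 and about level with each other, and the log2 fold change over EV was −0.85 ± 0.15 (adjusted p = 0.000531). Of the ring itself, Mcm5 (mm9 chromosome 8, 77633427 to 77652338, plus strand) had 76.6 and 88.1 CPM with TCF3-ZNF384, 135 and 135 with TAF15-ZNF384, 140.1 and 106 with ZNF384, and 140.0 and 142 with EV. The TCF3-ZNF384 libraries stood apart below the other 6, at −0.77 ± 0.12 (adjusted p = 0.000317) over EV. Mcm3 had 80.8 and 74.8 CPM with TCF3-ZNF384, 111 and 107 with TAF15-ZNF384, 127 and 96.8 with ZNF384, and 117 and 115 with EV, again with no overlap between TCF3-ZNF384 and any other group, at −0.57 ± 0.12 (adjusted p = 0.00242) over EV.

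Mcm2, the most abundant gene of the ring per length, had 574 and 568 CPM with TCF3-ZNF384, 729.6 and 742 with TAF15-ZNF384, 974 and 739 with ZNF384, and 841 and 766 with EV. It changed by −0.49 ± 0.12 (adjusted p = 0.00565) over EV with TCF3-ZNF384. Mcm4, another subunit of the ring, had 369 and 364 CPM with TCF3-ZNF384, 503 and 472 with TAF15-ZNF384, 688 and 486 with ZNF384, and 588 and 529.5 with EV. ZNF384 replicate 1 was the highest library for both genes and the TCF3-ZNF384 pair the lowest, and Mcm4 changed by −0.61 ± 0.13 (adjusted p = 0.00359) over EV. Mcm7 fell by 0.30 on the log2 scale, and Mcm6 did not pass at −0.28 ± 0.11 (adjusted p = 0.0593). In all, 5 of the 6 ring genes fell. Over the 8 libraries Mcm6 and Mcm7 spanned 136 to 222 and 341 to 503 CPM. Calls were lost for Mcm2 without TCF3-ZNF384 replicate 2 or EV replicate 1 (−0.49 to −0.43) and for Mcm7 without either TCF3-ZNF384 library, either TAF15-ZNF384 library or either EV library and with total-count scaling (−0.37 to −0.16).

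In the GINS complex Gins1 and Gins2 fell, and Gins3 and Gins4 did not pass, at −0.26 and −0.20. Gins2 (mm9 chromosome 8, 123102533 to 123113204, minus strand) had 8.93 and 8.67 CPM with TCF3-ZNF384, 15.0 and 14.9 with TAF15-ZNF384, 13.6 and 11.8 with ZNF384, and 12.8 and 12.7 with EV. Its TCF3-ZNF384 libraries were below all others, at −0.54 ± 0.14 (adjusted p = 0.00895) over EV, but 67.3% of its exonic length lies opposite Gse1, and the strand setting of the counting is not given in the sources used here. Gins1 changed by −0.55 ± 0.17 (adjusted p = 0.0223) over EV. Cdc45, the other partner of the ring, had 12.2 and 12.1 CPM with TCF3-ZNF384, 15.5 and 17.7 with TAF15-ZNF384, 11.7 and 9.66 with ZNF384, and 11.8 and 13.1 with EV. The TCF3-ZNF384 and EV libraries overlapped for Cdc45, and its log2 fold change was −0.04 ± 0.14 (adjusted p = 0.876). Levels over the 8 libraries were 23.3 to 51.5 CPM for Gins1, 43.7 to 74.4 for Gins3 and 55.2 to 67.2 for Gins4. Calls failed for Gins1 without either TCF3-ZNF384 library or either EV library (−0.64 to −0.48) and for Gins2 without TCF3-ZNF384 replicate 2 (−0.52).

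Of the 9 primase and polymerase genes, 6 fell with TCF3-ZNF384 against EV, with a median of −0.36. Prim2, the regulatory subunit of primase (mm9 chromosome 1, 33510656 to 33726631, minus strand), had 55.6 and 58.8 CPM with TCF3-ZNF384, 85.7 and 90.0 with TAF15-ZNF384, 86.4 and 70.5 with ZNF384, and 93.3 and 95.9 with EV. The TCF3-ZNF384 libraries were lowest, those of ZNF384 straddled a wider range, and the log2 fold change over EV was −0.72 ± 0.11 (adjusted p = 0.000198), the smallest adjusted p of the 40 genes. Pola1, the catalytic subunit of polymerase alpha (mm9 chromosome X, 90550106 to 90877494, minus strand), had 357 and 361 CPM with TCF3-ZNF384, 486 and 463 with TAF15-ZNF384, 587 and 405 with ZNF384, and 555 and 566 with EV. TCF3-ZNF384 and EV libraries were far apart for Pola1 relative to the gap within each pair, at −0.64 ± 0.14 (adjusted p = 0.00273).

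Pold2, an accessory subunit of polymerase delta, had 63.1 and 59.2 CPM with TCF3-ZNF384, 79.4 and 84.5 with TAF15-ZNF384, 107 and 86.8 with ZNF384, and 91.5 and 84.4 with EV. It changed by −0.53 ± 0.11 (adjusted p = 0.0029) over EV with TCF3-ZNF384, and its catalytic partner Pold1 by −0.45 ± 0.10 (adjusted p = 0.00292). Pola2, the second subunit of polymerase alpha, and Pole, the catalytic subunit of polymerase epsilon, fell by 0.36 and 0.32 on the log2 scale. Prim1, Pold3 and Pole2 did not pass, at −0.27, −0.21 and −0.27. The 8 libraries spanned 146 to 208 CPM for Pold1, 198 to 261 for Pole, 89.8 to 111 for Pold3, 29.99 to 46.5 for Pola2 and 41.0 to 56.9 for Prim1. Fits that missed the threshold were those for Pola2 without TCF3-ZNF384 replicate 2 or either EV library and with total-count scaling or libraries thinned to equal depth (−0.39 to −0.22) and for Pole without either TCF3-ZNF384 library, either TAF15-ZNF384 library or either EV library and with total-count scaling (−0.36 to −0.18).

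The clamp Pcna and the large loader subunit Rfc1 fell against EV with TCF3-ZNF384, while Rfc2 to Rfc5 did not pass. Pcna, which tethers the polymerases to DNA (mm9 chromosome 2, 132074898 to 132079050, minus strand), had 90.0 and 113 CPM with TCF3-ZNF384, 155 and 152 with TAF15-ZNF384, 106 and 82.4 with ZNF384, and 123 and 140.0 with EV. The TCF3-ZNF384 libraries were below those of EV and TAF15-ZNF384 and overlapped those of ZNF384. Its log2 fold change over EV was −0.37 ± 0.13 (adjusted p = 0.0482), close to the threshold, and the gene has pseudogene copies that could share reads. Rfc1 changed by −0.31 ± 0.10 (adjusted p = 0.0294). The 4 small loader subunits lay between −0.39 for Rfc5 and 0.05 for Rfc3. Loader genes spanned 70.6 to 92.3 CPM for Rfc1, 26.8 to 36.6 for Rfc2, 30.4 to 41.6 for Rfc3, 19.8 to 33.4 for Rfc4 and 34.6 to 64.4 for Rfc5 over the 8 libraries. Calls were missed for Pcna without TCF3-ZNF384 replicate 1, either TAF15-ZNF384 library or either EV library and with limma-voom or total-count scaling (−0.47 to −0.22) and for Rfc1 without either TCF3-ZNF384 library, either TAF15-ZNF384 library or either EV library and with total-count scaling or libraries thinned to equal depth (−0.36 to −0.17).

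In the fit of all 8 libraries, none of the 3 RPA genes and neither of the Okazaki fragment genes passed against EV with TCF3-ZNF384. A value that missed the threshold is not shown to equal that of EV. Rpa2, the middle RPA subunit and the highest of the 3 per length, had 101 and 96.2 CPM with TCF3-ZNF384, 134 and 133 with TAF15-ZNF384, 145 and 113 with ZNF384, and 116 and 112 with EV. TCF3-ZNF384 libraries were the lowest, but the change over EV was −0.21 ± 0.11 (adjusted p = 0.177). Rpa1 and Rpa3 stood at 0.22 and −0.27. Fen1, the flap nuclease of the lagging strand, had 43.5 and 45.1 CPM with TCF3-ZNF384, 47.7 and 55.9 with TAF15-ZNF384, 59.5 and 49.6 with ZNF384, and 52.0 and 50.04 with EV, at −0.20 ± 0.11 (adjusted p = 0.197) over EV. Of its exonic length, 78.8% lies opposite the gene model Gm10143, and shorter stretches lie opposite other genes in Rfc4 (12.6%), Rfc5 (10.7%), Cdc45 (9.28%), Orc1 (8.04%) and Mcm7 (7.25%). Lig1, the ligase that seals the fragments, stood at −0.04 ± 0.11. Their levels over the 8 libraries were 27.2 to 38.3 CPM for Rpa1, 30.3 to 49.3 for Rpa3 and 23.0 to 31.5 for Lig1.

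Of the 4 nucleotide supply genes, Tk1 rose with TCF3-ZNF384 against EV and the other 3 did not pass. Tk1, the thymidine kinase that salvages thymidine (mm9 chromosome 11, 117676840 to 117687406, minus strand), had 124 and 124 CPM with TCF3-ZNF384, 120.1 and 119 with TAF15-ZNF384, 101 and 85.0 with ZNF384, and 96.1 and 91.5 with EV. The TCF3-ZNF384 and TAF15-ZNF384 libraries lay above all 4 others, and Tk1 rose with TCF3-ZNF384 by 0.40 ± 0.10 (adjusted p = 0.00838) over EV. The call failed for Tk1 without either TCF3-ZNF384 library or EV replicate 2 (0.36 to 0.41). Rrm1, the large subunit of ribonucleotide reductase, had 664 and 629.6 CPM with TCF3-ZNF384, 712 and 692 with TAF15-ZNF384, 940.3 and 658 with ZNF384, and 681 and 622 with EV. The TCF3-ZNF384 and EV libraries overlapped, at −0.01 ± 0.13 (adjusted p = 0.961). Its small subunit Rrm2 had 271 and 264 CPM with TCF3-ZNF384, 357 and 329 with TAF15-ZNF384, 472 and 335 with ZNF384, and 314 and 289 with EV, at −0.17 ± 0.13 (adjusted p = 0.35) over EV with TCF3-ZNF384. Tyms, which makes thymidylate, stood at 0.14 ± 0.14, with 16.1 to 21.8 CPM over the 8 libraries, and has a pseudogene copy.

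**Figure D2:**
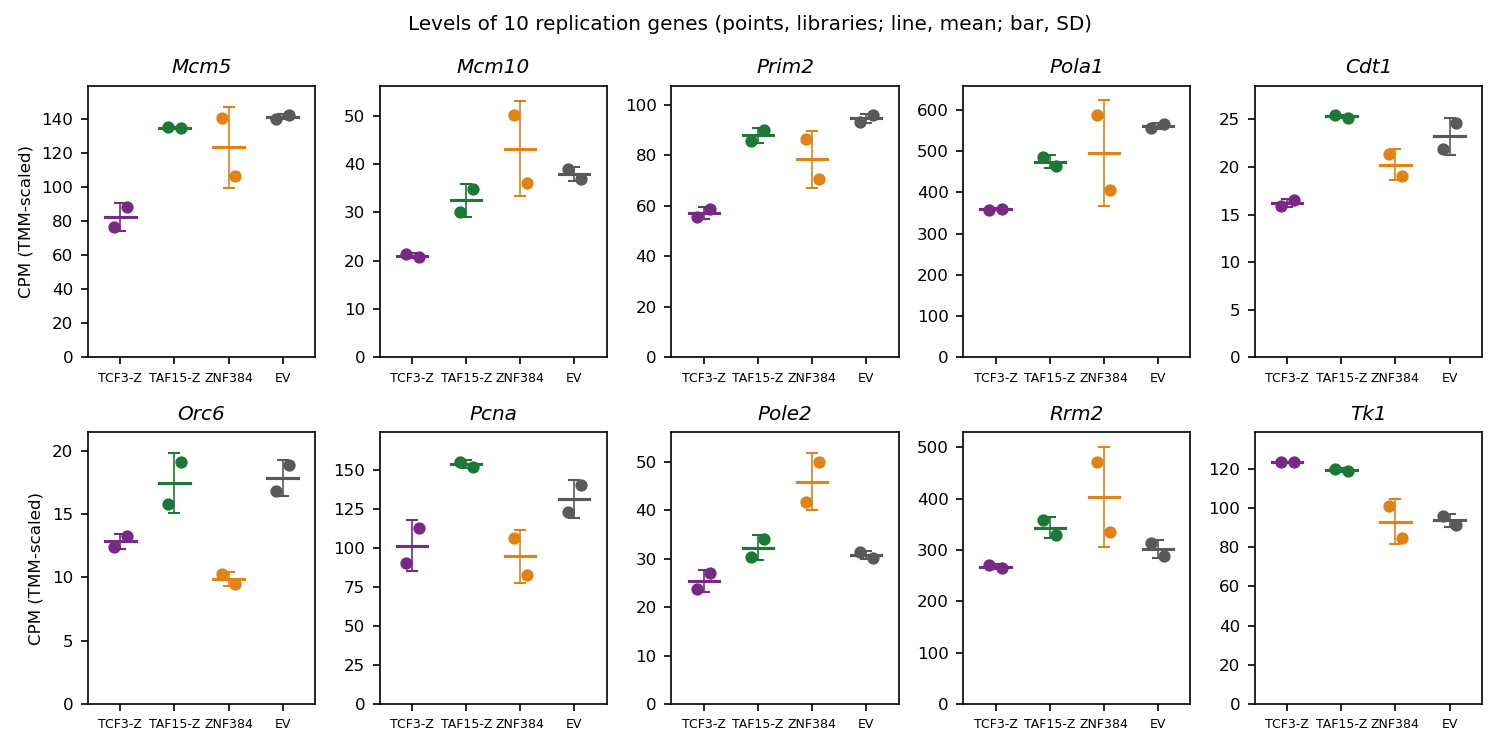
TMM-scaled CPM (y axis, from 0) of 10 of the genes in the 4 groups (x axis; TCF3-Z is TCF3-ZNF384 and TAF15-Z is TAF15-ZNF384), with points for the 2 libraries, a line for the mean and a bar for the SD. Mcm5, Mcm10, Prim2, Pola1 and Cdt1 are lowest with TCF3-ZNF384, Orc6 is lowest with ZNF384, Pole2 is highest with ZNF384 and Tk1 is higher with both fusions than with ZNF384 or EV.

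TCF3-ZNF384 was also set against TAF15-ZNF384, in a contrast that shares the TCF3-ZNF384 libraries with the one above. It had 15 of the 40 genes lower than TAF15-ZNF384 and none higher, where 4.17% of all tested genes were lower and 5.91% higher. The median was −0.38, beside 0.00 over all tested genes, and 37 of 40 lay below 0. For 37 of the 40, both TCF3-ZNF384 libraries were below both TAF15-ZNF384 libraries, which held for 28.2% of tested genes. At an unadjusted p under 0.05, 30 were lower and 0 higher, and limma-voom and DESeq2 also called 0 higher. Origin loading gave 3 of the lower genes, the helicase 6, primase and the polymerases 4, and the clamp with its loader and RPA 1 each. Reads of Zfp384 stood at 511 and 450.2 CPM with TCF3-ZNF384, against 185 and 162 with TAF15-ZNF384. Here, as in the contrasts with ZNF384, the kind of construct and its level cannot be told apart.

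The smallest adjusted p-values between the fusions belonged to Mcm5, at −0.71 ± 0.13 (adjusted p = 0.00242), Prim2, at −0.62 ± 0.11 (adjusted p = 0.00281), Gins2, at −0.77 ± 0.15 (adjusted p = 0.00437), and Cdt1, at −0.64 ± 0.13 (adjusted p = 0.00504). Orc1 had the largest difference, at −1.11 ± 0.26 (adjusted p = 0.0127), with 3.96 and 5.22 CPM with TCF3-ZNF384, 10.2 and 9.94 with TAF15-ZNF384, 8.41 and 5.42 with ZNF384, and 6.96 and 9.40 with EV. Pcna differed by −0.59 ± 0.14 (adjusted p = 0.0126) and Rpa2 by −0.43 ± 0.12 (adjusted p = 0.0298). Tk1, which was higher with both fusions than with EV, stood at 0.05 ± 0.10 (adjusted p = 0.82) between them. Mcm2, Mcm4 and Pola1 did not pass here, at −0.37, −0.41 and −0.40, although TCF3-ZNF384 was below TAF15-ZNF384 in every library of each.

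Between the fusions the count of calls moved with single libraries. It was 1 without TCF3-ZNF384 replicate 1 (Gins2), 6 without TCF3-ZNF384 replicate 2, 3 without TAF15-ZNF384 replicate 1 and 1 without TAF15-ZNF384 replicate 2 (Mcm5), and 30 when either ZNF384 library was left out of the shared estimate of spread. The median was between −0.40 and −0.35 in the 4 fits without a library of these groups. Of the genes just named, the threshold was missed for Mcm5 without TCF3-ZNF384 replicate 1 (−0.61) and for Prim2 without TCF3-ZNF384 replicate 1 or TAF15-ZNF384 replicate 2 (−0.58). It was also lost for Gins2 without TAF15-ZNF384 replicate 2 (−0.77) and for Cdt1 without TCF3-ZNF384 replicate 1 or either TAF15-ZNF384 library (−0.64 to −0.61). The threshold was likewise missed for Orc1 without TCF3-ZNF384 replicate 1 or either TAF15-ZNF384 library and with limma-voom (−1.12 to −0.94) and for Pcna without TCF3-ZNF384 replicate 1 or either TAF15-ZNF384 library (−0.61 to −0.44). The threshold was likewise missed for Rpa2 without either TCF3-ZNF384 library, either TAF15-ZNF384 library or either EV library (−0.47 to −0.40).

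TAF15-ZNF384 against EV left nearly all of the 40 genes without a call. Tk1 rose, by 0.35 ± 0.10 (adjusted p = 0.0448), and none fell, where 5.01% of tested genes rose and 6.01% fell. The median was 0.05, beside 0.01 over all tested genes, and the 40 values ran from −0.24 for Pola1 to 0.41 for Cdc45. The 20 genes that fell with TCF3-ZNF384 ran here from −0.24 for Pola1 and −0.23 for Mcm10 to 0.23 for Gins2 and 0.30 for Orc1, with Mcm5 at −0.07 and Prim2 at −0.11, and none of them passed. At an unadjusted p under 0.05, 4 of the 40 were higher and 0 lower, and limma-voom and DESeq2 also called 0 lower. A fit of the 2 groups alone called 4 higher and 1 lower. With total-count scaling, where all tested genes had a median of 0.12, Mcm5 was at 0.05 and Prim2 at 0.00, and 5 of the 40 genes rose. Orc1 stood at 0.30 ± 0.23 and Cdc45 at 0.41 ± 0.15 (adjusted p = 0.0864), with both TAF15-ZNF384 libraries above both EV libraries in each. The Tk1 call was lost without any 1 of the TCF3-ZNF384, TAF15-ZNF384 or EV libraries, at 0.31 to 0.38 and with limma-voom or no filter on low counts. Without either ZNF384 library, calls went in both directions, most of them higher. A value that missed the threshold here is not shown to equal that of EV.

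Of the 40 genes, 4 changed with full-length ZNF384 against EV. Pole2, an accessory subunit of polymerase epsilon, and Rrm2 rose, and Orc6 and Pcna fell, beside 10.8% of tested genes that rose and 9.87% that fell. The median was 0.03, as it was over all tested genes (0.03). Pole2 (mm9 chromosome 12, 70302766 to 70329177, minus strand) had 23.7 and 27.1 CPM with TCF3-ZNF384, 30.4 and 34.2 with TAF15-ZNF384, 41.8 and 50.1 with ZNF384, and 31.3 and 30.1 with EV. Both ZNF384 libraries were above the other 6, at 0.58 ± 0.12 (adjusted p = 0.00318) over EV. For Orc6, whose values are given above, the ZNF384 libraries were the lowest of all and the change was −0.85 ± 0.13 (adjusted p = 0.000529). Pcna changed by −0.47 ± 0.13 (adjusted p = 0.0224) and Rrm2 by 0.42 ± 0.13 (adjusted p = 0.0385). Mcm2, Mcm4 and Mcm10 stood at 0.09, 0.07 and 0.19, and Tk1 at −0.01.

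The 2 ZNF384 libraries differed from each other in nearly every one of these genes. Replicate 1 was above replicate 2 in 39 of 40, all but Pole2, with a median log2 ratio of 0.29, where 50.2% of all tested genes were higher in replicate 1. The same ratio had medians of 0.03 with TCF3-ZNF384, 0.01 with TAF15-ZNF384 and 0.02 with EV. Against EV, 8 genes passed without ZNF384 replicate 1 (1 higher, 7 lower, median −0.14) and 17 without ZNF384 replicate 2 (16 higher, 1 lower, median 0.11), and 30 of 40 lay below 0 in the first of these fits against 8 in the second. Zfp384 was at 51.1 CPM in replicate 1 and 90.2 in replicate 2, and the total counts were 41483660 and 20298726. The part of construct level or depth in this difference was not tested. The count was 2 without EV replicate 2. Orc6 and Pole2 passed in every alternative, and the other calls did not. They were missed for Pcna without ZNF384 replicate 2 or EV replicate 2 (−0.37 to −0.32) and for Rrm2 without either TCF3-ZNF384 library, either TAF15-ZNF384 library, ZNF384 replicate 1 or either EV library and with a fit of the 2 groups alone (0.14 to 0.49).

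Against full-length ZNF384, TCF3-ZNF384 had 26 of the 40 genes lower and 2 higher, beside 23.4% and 22.2% of all tested genes. The median was −0.39, and 31 of 40 had both TCF3-ZNF384 libraries below both ZNF384 libraries, where that held for 36.2% of tested genes. Mcm10 differed by −1.04 ± 0.14 (adjusted p = 5.94e-05), Pole2 by −0.84 ± 0.12 (adjusted p = 7.78e-05), Mcm4 by −0.68 ± 0.13 (adjusted p = 0.00109) and Pold2 by −0.67 ± 0.11 (adjusted p = 0.00032). Of the helicase genes 10 of 12 were lower, of the polymerase genes 7 of 9, and both Okazaki fragment genes, Fen1 at −0.30 and Lig1 at −0.32, were lower. Tk1 was higher, at 0.41 ± 0.10 (adjusted p = 0.00507), and so was Orc6, at 0.38 ± 0.14 (adjusted p = 0.0395). Pcna and Cdc45 stood at 0.10 and 0.18. Without ZNF384 replicate 1 the count was 18 and the median −0.22, and without ZNF384 replicate 2 they were 34 and −0.53. The count was 15 without TCF3-ZNF384 replicate 2.

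Of the calls against ZNF384, 13 held in every alternative and with every library left out. The others were lost in at least 1. With total-count scaling, which put the median of all tested genes at 0.18, there were 18 lower and 4 higher calls. For the genes named here, the threshold was missed for Orc6 without either TCF3-ZNF384 library, ZNF384 replicate 2 or either EV library and with DESeq2's Wald test, no filter on low counts or a fit of the 2 groups alone (0.34 to 0.44) and for Fen1 without either TCF3-ZNF384 library, either TAF15-ZNF384 library, ZNF384 replicate 1 or either EV library and with DESeq2's Wald test, total-count scaling, libraries thinned to equal depth, a fit of the 2 groups alone or a 2 CPM filter (−0.32 to −0.13). It was also lost for Lig1 without either TCF3-ZNF384 library or ZNF384 replicate 1 and with DESeq2's Wald test, total-count scaling or a fit of the 2 groups alone (−0.36 to −0.15).

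TAF15-ZNF384 against full-length ZNF384 gave 4 higher and 2 lower genes, beside 15.4% and 17.9% of all tested genes, with a median of −0.00. Orc6 was higher, at 0.82 ± 0.14 (adjusted p = 0.000721), as were Pcna, at 0.70 ± 0.14 (adjusted p = 0.00162), Cdc45, at 0.63 ± 0.15 (adjusted p = 0.00516), and Tk1, at 0.36 ± 0.10 (adjusted p = 0.0169). Pole2 was lower, at −0.50 ± 0.12 (adjusted p = 0.00641), and so was Mcm10, at −0.42 ± 0.14 (adjusted p = 0.0385). With total-count scaling, where the median of all tested genes was 0.12, the split was 7 higher and 1 lower. Only the calls of Orc6 and Pcna held in every alternative and with every library left out. The count was 13 without ZNF384 replicate 1 (12 higher), 17 without ZNF384 replicate 2 (13 lower), and 3 without either TAF15-ZNF384 library. An adjusted p over 0.05 was found for Cdc45 without TAF15-ZNF384 replicate 2 (0.52) and for Tk1 without either TAF15-ZNF384 library (0.34 to 0.35). It was also lost for Pole2 without TAF15-ZNF384 replicate 1 (−0.43) and for Mcm10 without either TCF3-ZNF384 library, either TAF15-ZNF384 library or ZNF384 replicate 1 and with DESeq2's Wald test, limma-voom, total-count scaling, libraries thinned to equal depth or a fit of the 2 groups alone (−0.54 to −0.14).

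Across all 8 libraries, both TCF3-ZNF384 libraries lay below the other 6 for 29 of the 40 genes (72.5%), and this held for 15.7% of all tested genes. In 11 genes TCF3-ZNF384 was lower than TAF15-ZNF384, ZNF384 and EV with a call each time: Cdt1, Gins1, Gins2, Mcm10, Mcm3, Mcm5, Mcm7, Pola2, Pold1, Pold2 and Prim2. The 3 contrasts share the TCF3-ZNF384 libraries, so they are not independent. Of the 15 calls against TAF15-ZNF384 on which the 11 rest, 1 was kept without TCF3-ZNF384 replicate 1, 1 without TAF15-ZNF384 replicate 2, and 0 held with every library left out in turn. None of the 11 was a clamp or loader, RPA, Okazaki fragment or nucleotide supply gene. The genes outside the set of 29 were Orc6, Cdc45, Gins4, Pold3, Pcna, Rfc3, Rpa1, Lig1, Rrm1, Tyms and Tk1.

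**Figure D3:**
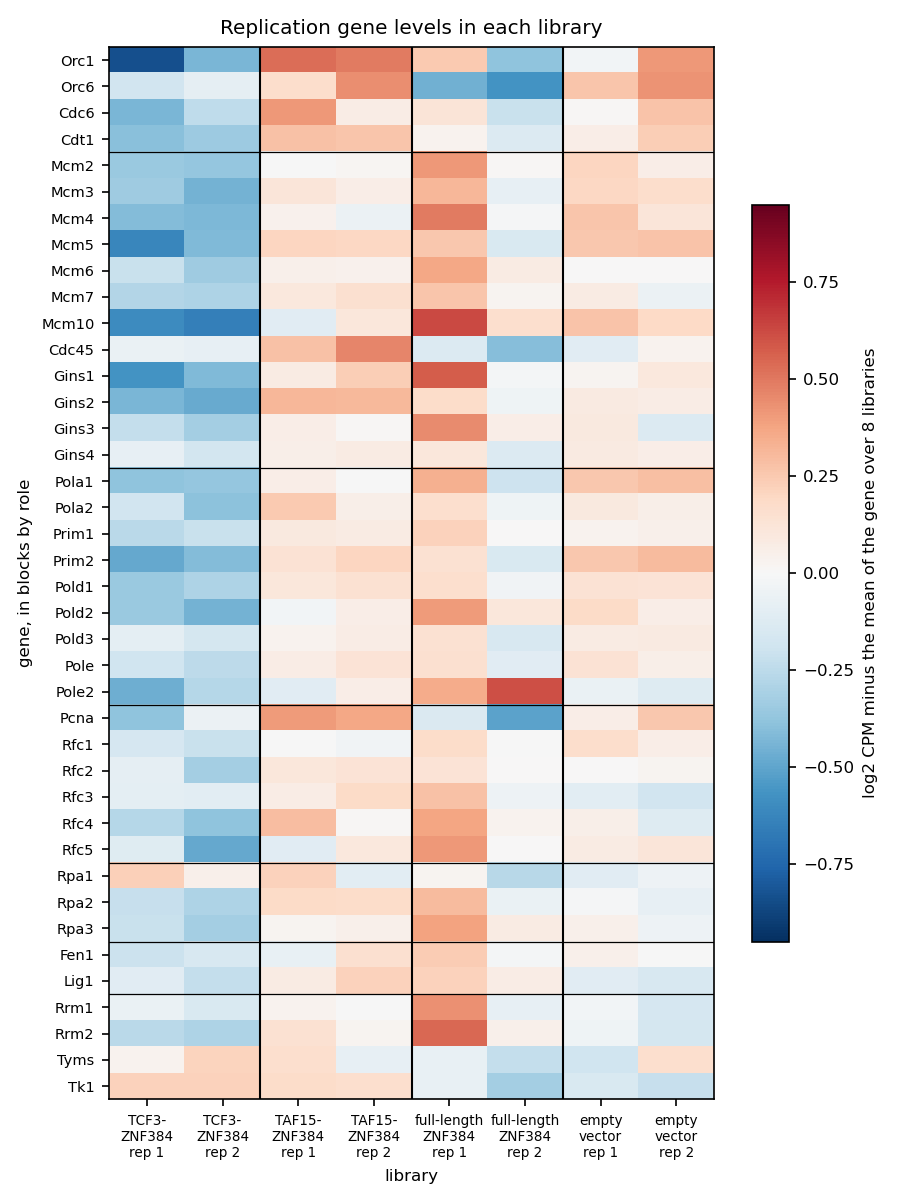
Log2 CPM of each of the 40 genes (rows, in blocks by role) in each library (columns), as the difference from that gene's mean over the 8 libraries. The TCF3-ZNF384 columns are blue in most rows except Rpa1, Tyms and Tk1, and ZNF384 replicate 1 is redder than replicate 2 in every row but Pole2.

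Levels per length (CPM per kilobase of annotated exons) differed between subunits by amounts that varied with the complex. In the ring, Mcm2 was highest at 169 with TCF3-ZNF384, 218 with TAF15-ZNF384, 254 with ZNF384 and 238 with EV. The lowest ring gene was Mcm5 with TCF3-ZNF384, at 23.5, and Mcm3 with EV, at 38.6, so the highest level per length was 7.20 and 6.17 times the lowest. In GINS, Gins4 was 19.5 times Gins2 with TCF3-ZNF384 and 15.5 times with EV. The ratio of highest to lowest was smaller in polymerase delta, at 1.45 to 2.09 over the 4 groups, and in ribonucleotide reductase, at 1.37 to 1.67. For polymerase epsilon the ratio was at most 1.45 in any group and the order changed: Pole2 was the higher per length with ZNF384, at 27.1 against 25.0 for Pole, and the lower with EV, at 18.1 against 26.3. These levels rest on annotated exon lengths and on all isoforms together.

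Other genes of the replication pathway, from lists that do not hold the 40, were tested in the same fit. With TCF3-ZNF384 against EV, the replication lists held more lower than higher genes, where all tested genes had 17% lower, 16.2% higher and a median of 0.01. Of 23 fork and chromatin genes, 14 fell and none rose (median −0.38), with Dna2, a nuclease of Okazaki fragments, at −0.64 ± 0.13 (adjusted p = 0.00186) and Uhrf1, which recruits the maintenance methylase, at −0.45 ± 0.10 (adjusted p = 0.00341). Of 8 origin firing genes, 5 fell (median −0.41), with Mtbp at −0.73 ± 0.12 (adjusted p = 0.000554) and the scaffold Topbp1 at −0.46 ± 0.11 (adjusted p = 0.00528). Of 9 origin recognition and licensing control genes, 2 fell (median −0.23), namely Dtl, an adaptor in Cdt1 degradation, at −0.39, and Orc2 at −0.40. Among these, the threshold was missed for Dtl without either TCF3-ZNF384 library or EV replicate 2 and with total-count scaling (−0.46 to −0.25) and for Orc2 without either TCF3-ZNF384 library, either TAF15-ZNF384 library or EV replicate 2 and with DESeq2's Wald test, limma-voom, total-count scaling or libraries thinned to equal depth (−0.51 to −0.23). It was also lost for Topbp1 without TCF3-ZNF384 replicate 1 (−0.43).

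Nucleotide synthesis gave 17 lower and 2 higher of 27 genes with TCF3-ZNF384 against EV (median −0.49). Shmt2, the mitochondrial serine hydroxymethyltransferase, had 34.2 and 37.0 CPM with TCF3-ZNF384, 55.5 and 57.8 with TAF15-ZNF384, 57.7 and 70.9 with ZNF384, and 92.8 and 86.3 with EV. It was lowest with TCF3-ZNF384 and changed by −1.33 ± 0.12 (adjusted p = 1.15e-06) over EV. Samhd1, which breaks down deoxynucleotides, had 38.4 and 34.7 CPM with TCF3-ZNF384, 9.02 and 10.9 with TAF15-ZNF384, 6.60 and 10.2 with ZNF384, and 9.07 and 12.3 with EV. Both TCF3-ZNF384 libraries stood above the other 6, at 1.77 ± 0.19 (adjusted p = 2.76e-05) over EV. Adss, of adenine nucleotide synthesis, rose by 0.55 ± 0.11 (adjusted p = 0.00213), and Dctpp1, a pyrophosphatase of deoxycytidine triphosphate, changed by −0.88 ± 0.14 (adjusted p = 0.000239).

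E2F and S phase control genes were divided, with 4 higher and 5 lower of 19 (median −0.10). E2f2, an activator of the family, and Rb1, which restrains E2F, rose by 0.76 ± 0.10 (adjusted p = 6.87e-05) and 0.69 ± 0.09 (adjusted p = 7.56e-05) over EV with TCF3-ZNF384. E2f8, an atypical repressor of the family, and Mybl2, a known E2F target, changed by −0.87 ± 0.12 (adjusted p = 0.000108) and −0.78 ± 0.14 (adjusted p = 0.000755). Mitosis genes, taken as a contrast outside replication, fell in 15 of 18 with none higher (median −0.44), and the proliferation marker Mki67 changed by −0.45 ± 0.10 (adjusted p = 0.00267). Without EV replicate 1, Mki67 did not pass (−0.39). So the lower replication genes stood beside a lower mitosis list, and the part of cell cycle phase in either was not tested.

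With TAF15-ZNF384 against EV, 5.01% of all tested genes rose and 6.01% fell, with a median of 0.01. The licensing, firing and fork lists had medians of 0.21, −0.02 and −0.03. Those of the E2F, nucleotide synthesis and mitosis lists were 0.24, −0.17 and −0.13. In the same lists, 1 of 9 licensing genes (Gmnn, the inhibitor of Cdt1, at 0.54), 1 of 8 firing genes (Donson at 0.70) and 1 of 23 fork genes (Chtf18 at 0.41) rose. Of the 19 E2F and S phase genes 5 rose and none fell, with Tfdp1, a dimer partner of E2F, at 0.43 and Cdk2 at 0.41, while 3 of 27 nucleotide synthesis genes fell, with Shmt2 at −0.66 ± 0.11 (adjusted p = 0.0022), and the mitosis list had 1 higher and 2 lower of 18. Each of the 5 genes named as higher lost its call without either EV library or TAF15-ZNF384 replicate 1, and all but Gmnn also without TAF15-ZNF384 replicate 2, at 0.31 to 0.81. With ZNF384 against EV, where 10.8% of all tested genes rose and 9.87% fell, 6 of 23 fork genes rose, with Chaf1b, a chromatin assembly subunit, at 0.56 ± 0.11 (adjusted p = 0.00323). Nucleotide synthesis had 9 higher and 2 lower of 27, with Shmt1, the cytosolic counterpart of Shmt2, at 0.73 ± 0.14 (adjusted p = 0.00366). The lower ones were Rrm2b, an alternative small subunit of ribonucleotide reductase, at −0.57 ± 0.09 (adjusted p = 0.000966), and Shmt2, at −0.48 ± 0.11 (adjusted p = 0.00709), which did not pass without EV replicate 1 (−0.43). Licensing had 0 higher and 1 lower of 9, firing had 0 calls of 8 by edgeR (1 at an unadjusted p under 0.05, Wdhd1 at 0.24), and the E2F list had 3 higher and 2 lower of 19. In the mitosis list 5 of 18 rose with ZNF384 and none fell, with Ccnb2, a B-type cyclin, at 0.57 ± 0.13 (adjusted p = 0.00683), which did not pass without EV replicate 2 (0.45). The higher Chaf1b, Shmt1 and Ccnb2 had 68.7, 106 and 207 CPM in ZNF384 replicate 1 and 56.9, 72.6 and 162 in replicate 2. The lower Rrm2b and Shmt2 had 137 and 57.7 CPM in replicate 1 and 153 and 70.9 in replicate 2. The part of this spread in the list counts was not tested.

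Between the fusions, TCF3-ZNF384 was lower than TAF15-ZNF384 in 8 of 23 fork genes, 2 of 8 firing genes, 3 of 9 licensing genes and 3 of 18 mitosis genes, and higher in none of these, beside 4.17% lower and 5.91% higher over all tested genes. Uhrf1 differed by −0.66 ± 0.10 (adjusted p = 0.000896) and Gmnn by −0.93 ± 0.16 (adjusted p = 0.00213), and both held without any 1 library. Nucleotide synthesis had 6 lower and 2 higher of 27, with Samhd1 again higher, at 1.87 ± 0.22 (adjusted p = 0.000191). The E2F list had 4 lower and 2 higher of 19, with Mybl2 at −0.87 ± 0.14 (adjusted p = 0.00137).

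**Figure D4:**
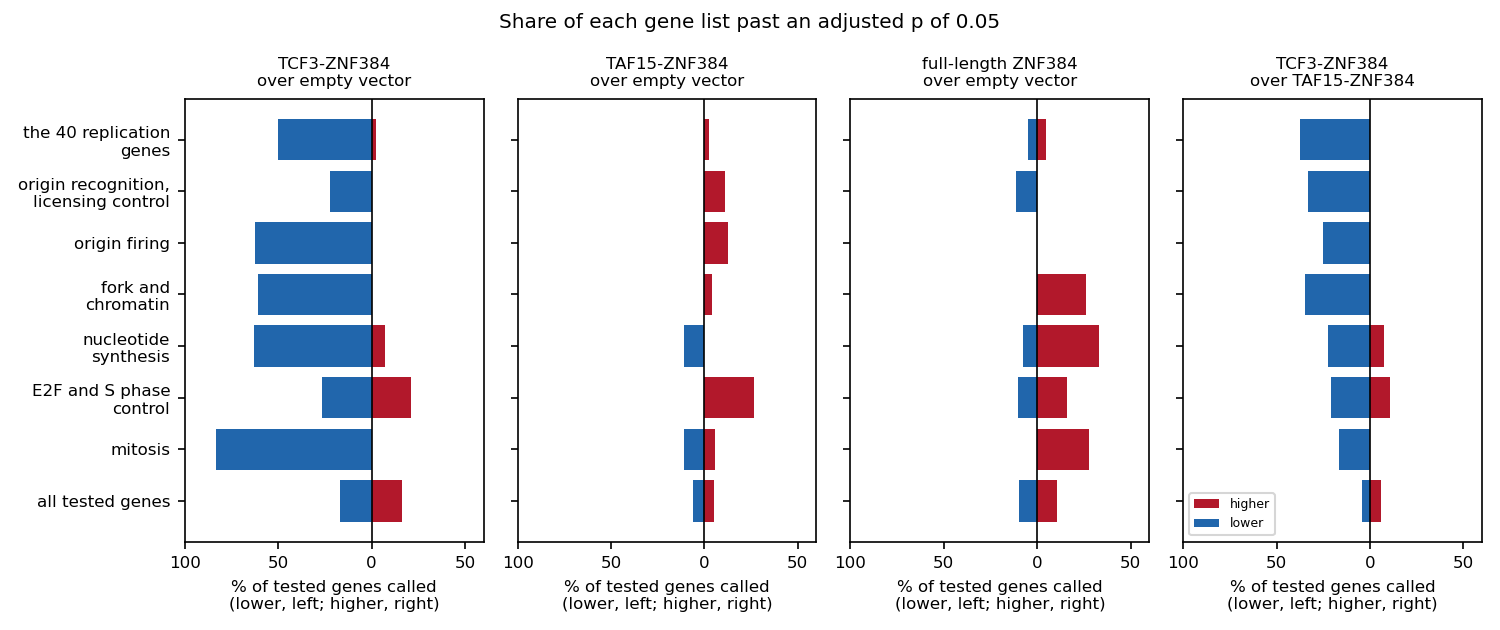
Share of tested genes of each list that were called lower (left of 0, blue) or higher (right of 0, red) at an adjusted p under 0.05, in percent, for the 3 contrasts with EV and for TCF3-ZNF384 over TAF15-ZNF384; the bottom bar is all tested genes. With TCF3-ZNF384 over EV, 20 of the 40 replication genes, 14 of 23 fork genes and 15 of 18 mitosis genes are on the lower side.

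B lineage markers that the label implies were present in all 4 groups. Cd79a, a signalling chain of the B cell receptor, had 746 and 729 CPM with TCF3-ZNF384, 547 and 552 with TAF15-ZNF384, 659 and 707 with ZNF384, and 697 and 604 with EV. Pax5, a transcription factor of B cell identity, had 978 and 1024 CPM with TCF3-ZNF384, 1142 and 1053 with TAF15-ZNF384, 926 and 968 with ZNF384, and 1073 and 1026 with EV. The 8 myeloid markers summed to 1.29 CPM in both TCF3-ZNF384 libraries, mostly Itgam at 1.01 and 0.915, and to 0.317 to 0.544 with TAF15-ZNF384, 0.0437 to 0.115 with ZNF384 and 0.363 to 0.391 with EV. S100a8 and S100a9, defining myeloid genes, were at 0 in all 8 libraries. T cell markers summed to 26.0 to 26.3 CPM with TCF3-ZNF384, 20.7 to 21.9 with TAF15-ZNF384, 21.7 to 26.2 with ZNF384 and 19.5 to 21.4 with EV, and nearly all of that was Lck, at 18.9 to 25.5 CPM over the 8 libraries. Cd8a was at 0 in all 8, Cd3e, Cd3g and Cd4 reached at most 0.215 CPM and Cd3d at most 1.38. The part of these markers in the results was not tested. Erythroid markers summed to at most 4.02 CPM and stromal markers to at most 2.12 CPM in any library. Of the erythroid markers, Epor was at 1.56 and 1.08 CPM with TCF3-ZNF384 and at most 0.183 in all other libraries. Klf1 went the other way, at 0.552 and 1.24 CPM with TCF3-ZNF384 and 1.96 to 3.81 in all other libraries.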

How the data were processed

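RNA-seq read counts per gene (mm9, HTSeq 0.6.1p1, per the submitters' processing notes) were deposited by the authors as raw counts for 8 libraries. Libraries came from total RNA with a TruSeq Stranded kit, per the labels. Neither the aligner nor whether counting used strand is given in the sources used here. The 40 genes and the other gene lists were chosen with earlier results of these data known. Counts were fitted in edgeR 4.0.16 (R 4.3.3) with 1 term per group over all 8 libraries, genes kept by filterByExpr, TMM scaling and the robust quasi-likelihood test, and p-values were adjusted by Benjamini-Hochberg over 12970 genes. Total counts were 9381954 to 41483660 per library, and 10419 genes had no counts. On simulated data made from these libraries for TCF3-ZNF384 over EV (12740 genes), 68 of 100 genes changed 1.5-fold and 99 of 100 changed 2-fold were recovered, with 7 false calls. Only 200 genes were changed there, and smaller changes, such as most of those of the 40 genes, were not simulated. Replicates were grouped by their titles, and log2 CPM correlated at 0.977 to 0.989 between the libraries of a group.

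Genes were named by rule: per comparison, those with the smallest adjusted p in each direction among calls whose libraries do not overlap (up to 6 against EV and 4 otherwise), the member of each role with the highest mean CPM, and up to 2 per direction of each pathway list. All other members are accounted for by values or ranges. The alternatives were DESeq2 1.42.0 (size factors and Wald test), limma-voom (limma 3.58.1), no filter, a filter of 2 CPM in 2 libraries, only the 2 groups compared, a replicate block, removal of 5 abundant non-coding genes with TMM or total-count scaling, and each library left out. Thinning all libraries to 6745156 counts outside those 5 genes was chosen after seeing the data. Gene coordinates and exon lengths come from GENCODE vM1 (mm9), and promoters from RefSeq (GRCm38.p6) by symbol.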

Additional observations from a re-analysis of the deposited data

How the results depend on the processing

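The count of the 40 genes that passed ran from 10 to 31 with single libraries left out for TCF3-ZNF384 over EV, from 0 to 4 for TAF15-ZNF384 over EV and from 2 to 17 for ZNF384 over EV. It ran from 15 to 34 for TCF3-ZNF384 over ZNF384, from 3 to 17 for TAF15-ZNF384 over ZNF384 and from 1 to 30 for TCF3-ZNF384 over TAF15-ZNF384. A fit of the 2 groups alone gave 29 calls for TCF3-ZNF384 over EV and 30 for TCF3-ZNF384 over TAF15-ZNF384. For TAF15-ZNF384 over EV it gave 4 higher and 1 lower. Total-count scaling there gave 5, and limma-voom and no filter on low counts gave 0, against 1 with edgeR as reported. With the replicate number as a block the counts were 23, 1 and 4 for TCF3-ZNF384, TAF15-ZNF384 and ZNF384 over EV, 30 and 6 for TCF3-ZNF384 and TAF15-ZNF384 over ZNF384, and 21 for TCF3-ZNF384 over TAF15-ZNF384. Same-numbered libraries had correlations of their deviations of 0.0136 to 0.225, highest between EV and TCF3-ZNF384. Whether these libraries shared a culture or batch was not tested, and the shared number is that of the titles only. In the 6 column names with a suffix, its number differs from the title for replicate 1, and the EV names have none. Values near 0 changed sign in some fits, and the cause was not tested. For TCF3-ZNF384 over EV, Cdc45 was at 0.10 with total-count scaling, 0.11 after thinning and −0.11 to 0.034 with single libraries left out. Rrm1 was there at 0.13 with total-count scaling, 7.59e-05 after thinning, 0.00075 with the 2 CPM filter and −0.079 to 0.050 with single libraries left out, and Tyms ran from −0.033 to 0.32. For TAF15-ZNF384 over EV, total-count scaling put Mcm5 at 0.045 and Prim2 at 0.00337. For ZNF384 over EV, with single libraries left out, Mcm10 ran from −0.085 to 0.38, Mcm2 from −0.14 to 0.26, Mcm4 from −0.22 to 0.28 and Tk1 from −0.16 to 0.094. Likewise Pcna ran from −0.061 to 0.32 for TCF3-ZNF384 over ZNF384. Over the single genes named, 3166 results kept direction and side of the threshold, 419 lost the call, 69 gained it and 18 changed sign. Depth was lowest for both TAF15-ZNF384 libraries and TCF3-ZNF384 replicate 1, which limits small changes most there.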
